A study of Mus musculus with 8 samples.

Results

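The epithelial microRNAs described here are the miR-200 family (miR-200a, miR-200b, miR-200c, miR-141 and miR-429), miR-203 and miR-205. They were chosen by name, on any arm or hairpin, and all 7 were listed in both deposited tables, among 329 miRNA numbers in the first and 350 in the second. The libraries hold small RNA of mouse macrophages grown in culture out of bone marrow, here for 3 days with M-CSF at the equivalent of 20 ng/ml. All mice had a mixed C57BL/6/129 background that was over 90% C57BL/6. Wild-type cells (labelled WT) were compared with RBP-J knockout cells of genotype Rbpjf/f; LysM Cre, in which a Cre driven by the myeloid LysM gene deletes RBP-J, the DNA-binding partner of Notch receptors. Each genotype was either kept without stimulation or given TNF, an inflammatory cytokine, for 24 hours, at a dose not given in the sources used here, which made 4 groups of 2 libraries. The deletion could not be checked, since the files hold miRNAs only. The labels do not say that the 2 libraries of a group came from separate animals or cultures, so errors and p-values measure the spread between these libraries, which may be technical.

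MicroRNAs are short RNAs that repress messenger RNAs by pairing to them, mainly through the seed at bases 2 to 8. The miR-200 family maintains the epithelial state by repressing Zeb1 and Zeb2, transcription factors that silence E-cadherin, and it is made from a cluster on chromosome 4 and a cluster on chromosome 6. miR-203 promotes differentiation of skin keratinocytes, in part through repression of p63, and miR-205 is typical of basal and squamous epithelium. None of them is a usual marker of macrophages.

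The mature sequences from RefSeq (GRCm38.p6) are shown because the seed sets which members share targets and because close copies can share reads. Written 5′ to 3′, with bases 2 to 8 in capitals, the seed AAUACUG is common to miR-200b, miR-429 and miR-200c.
mmu-miR-200b-3p: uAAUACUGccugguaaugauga
mmu-miR-429-3p: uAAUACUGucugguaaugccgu
mmu-miR-200c-3p: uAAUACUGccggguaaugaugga
The seed AACACUG is common to miR-200a and miR-141.
mmu-miR-200a-3p: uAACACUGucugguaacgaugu
mmu-miR-141-3p: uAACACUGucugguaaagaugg
miR-203 and miR-205 have seeds of their own.
mmu-miR-203-3p: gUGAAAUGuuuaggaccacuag
mmu-miR-205-5p: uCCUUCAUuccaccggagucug
Counted from the 5′ end, the miR-200 seeds differ by U4C, from miR-200b to miR-200a. Within a seed group, miR-200b and miR-200c differed at 2 of 22 bases compared (U11G and A22G), and miR-200a and miR-141 also at 2 (C17A and U22G). A read that lacks base 22 is thus told apart between clusters by U11G or C17A alone. The first table lists 6 members by the 3p arm and miR-205 by the 5p arm.

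In GRCm38, as annotated by GENCODE M21, Mir200b (ENSMUSG00000065549, chr4:156055681-156055750), Mir200a (ENSMUSG00000065400, chr4:156054896-156054985) and Mir429 (ENSMUSG00000065427, chr4:156053905-156053987) lie on the minus strand within 1846 bases. All 3 stand in an intron of the protein-coding Ttll10. In the non-coding Gm13648, Mir200b and Mir200a are intronic and Mir429 overlaps an exon. Mir200c (ENSMUSG00000065462, chr6:124718322-124718390) and Mir141 (ENSMUSG00000065474, chr6:124717914-124717985) lie on the minus strand within 477 bases, in an intron of the antisense RNA Gm15884. Mir203 (ENSMUSG00000065574, chr12:112130880-112130955, plus strand) overlaps no annotated gene. Mir205 (ENSMUSG00000065533, chr1:193507463-193507530, minus strand) lies in an exon of the lincRNA 4631405K08Rik.

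The 7 miRNAs were scarce beside the miRNAs of macrophages. In the first table, in CPM (miRNA reads scaled to a common total), they summed to 349 CPM in unstimulated wild type, 97.8 with TNF, 207 in the unstimulated knockout and 97.8 in the knockout with TNF. In the second table, taken to be in RPKM (reads divided by hairpin length and by library size), the sums were 524, 1277, 459 and 761 RPKM in the same order. The 6 macrophage and myeloid markers, among them miR-223 and miR-142a, summed to 176036 to 216276 CPM and 2459270 to 3594360 RPKM, and none was at 0 in any library. Most of that sum was miR-22 and miR-21a, with means of 92030 and 77050 CPM and 1461000 and 1078000 RPKM. miR-142a averaged 12300 CPM and 114400 RPKM, and miR-223 averaged 2340 CPM and 39880 RPKM. All 7 epithelial miRNAs together took 0.00978% to 0.0349% of the listed miRNA reads of CPM libraries and 0.0073% to 0.0142% of those of RPKM libraries. In bulk samples, fewer cells of a type and less RNA per cell cannot be told apart.

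Depth differed greatly between the tables. The CPM libraries held 321327 to 848652 reads, and the members had 0 to 53 reads each in them. The RPKM libraries held about 13575005 to 21712418 reads, and the members had 2 to 1128. Among the CPM libraries, that of unstimulated wild type stood apart, with an SD of log2 ratios to the other libraries of 1.54 across 183 miRNAs, against 1.06 to 1.17 for the others. It was the highest of the 4 CPM libraries for 7 of the 7 members, and for 53.0% of the 183 miRNAs tested. For miR-205, which exceeded 5 CPM in that library alone, this was favoured by its being listed. The lymphoid markers miR-150 and miR-342 summed to 7755 CPM there and to 962 to 2962 in the other 3 libraries. Of 3 erythroid markers only miR-486a was listed in CPM, at 3302 there against 1019 to 1354. The other erythroid markers, miR-451a and miR-144, were listed only in the RPKM table, where they summed to 5.16 to 11.3 RPKM. The part of these markers in the results was not tested.

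miR-200b was the highest of the 7 in 7 of 8 libraries, and miR-200c was higher than it in the unstimulated knockout of the RPKM table. CPM here counts mature arms of near-equal length. It had 156 CPM in unstimulated wild type, 69.4 with TNF, 150 in the unstimulated knockout and 60.1 in the knockout with TNF, from 50, 39, 53 and 51 reads. In the RPKM table it had 243, 833, 125 and 384 RPKM, from 370, 1128, 130 and 365 reads. Its mean level stood above 65.0% of the miRNA numbers of the CPM table and 67.4% of those of the RPKM table. The TNF-treated libraries were thus the low ones of the CPM table and the high ones of the RPKM table, in both genotypes.

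The partners of miR-200b on chromosome 4 were lower. miR-429 had 34.2, 10.7, 25.5 and 18.9 CPM in the same order of groups, and 56.0, 167, 34.8 and 75.4 RPKM. miR-200a had 15.6, 1.78, 8.50 and 0 CPM, from 5, 1, 3 and 0 reads, where 0 reads allow up to 3.54 CPM. Its values in the RPKM table were 22.0, 70.1, 5.97 and 40.9 RPKM, from 43, 122, 8 and 50 reads. Per hairpin length, the order in all 4 RPKM libraries was miR-200b, miR-429, miR-200a, with miR-200b 3.59 to 5.09 times miR-429 and 9.39 to 20.9 times miR-200a. The CPM table gave the same order, with miR-200b 3.19 to 6.50 times miR-429.

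On chromosome 6, miR-200c had 56.0, 8.89, 11.3 and 2.36 CPM, from 18, 5, 4 and 2 reads, with the unstimulated wild-type library above the rest. In the RPKM table it had 160, 137, 240 and 193 RPKM, and both knockout libraries were above both wild-type ones. Its neighbour miR-141 had 34.2, 5.34, 2.83 and 11.8 CPM, from 11, 3, 1 and 10 reads. In the RPKM table miR-141 had 25.6, 41.7, 43.8 and 55.3 RPKM, again with both knockout libraries above both wild-type ones. Per hairpin length, miR-200c stood at 3.29 to 6.26 times miR-141. In CPM it stood at 1.64, 1.67, 4.0 and 0.2 times miR-141, with the order turned in the knockout with TNF, from 2 and 10 reads.

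miR-203 and miR-205 rested on few reads. miR-203 had 15.6, 0, 5.66 and 4.71 CPM, from 5, 0, 2 and 4 reads, and 9.70, 21.1, 7.07 and 8.72 RPKM, from 16, 31, 8 and 9 reads. The 0 reads of wild type with TNF allow up to 5.34 CPM, so its CPM order cannot be read. miR-205 had 37.4, 1.78, 2.83 and 0 CPM, from 12, 1, 1 and 0 reads, and 7.45, 6.84, 1.97 and 3.25 RPKM, from 11, 9, 2 and 3 reads. Its unstimulated wild-type CPM library stood far above the other 3, and both wild-type RPKM libraries were above both knockout ones. No row of the CPM table has a maximum under 5.34 CPM, and miR-205 exceeded 5 CPM in that library alone.

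**Figure D1:**
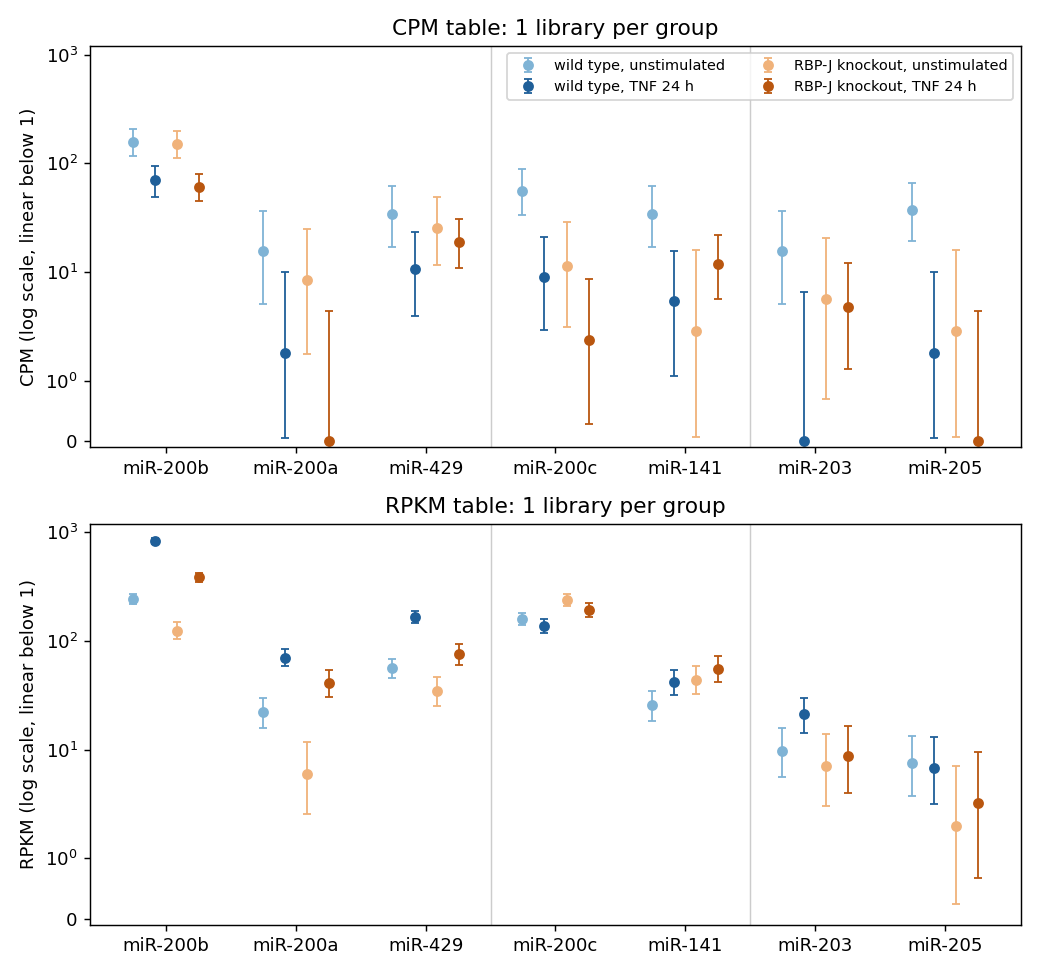
Value of each epithelial miRNA in each of the 8 libraries, in CPM above and RPKM below (log axes, linear below 1), with exact 95% binomial intervals that cover counting error only; colours give the 4 groups, and grey lines part the chromosome 4 cluster, the chromosome 6 cluster and the other 2. For miR-200b the TNF libraries are the lower ones in CPM (60.1 and 69.4) and the higher ones in RPKM (384 and 833).

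For TNF in wild-type cells, the tables gave opposite directions for most members. Within the CPM table all 7 were lower with TNF by at least 2-fold on the log2(value + 1) scale, as were 41.0% of the 183 miRNAs tested. However, miR-200a, miR-203 and miR-205 exceeded 5 CPM only in unstimulated libraries. A lower CPM value with TNF was thus favoured by their being listed, in this count and in those below. In RPKM, 4 of 7 were higher by at least 2-fold (miR-200b, miR-200a, miR-429 and miR-203), against 9.29% of the 183. Without a pseudocount, miR-200b was 2.24-fold lower with TNF in the CPM table (exact 95% interval from the reads 1.45 to 3.50) and 3.42-fold higher in the RPKM table (3.04 to 3.86). These intervals cover counting error only and compare 1 library with 1 library, not the conditions.

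The remaining chromosome 4 miRNAs went the same way as miR-200b by value. In CPM, however, miR-200a of the wild type went from 5 reads to 1 with TNF. Its 8.74-fold fall had an interval (0.979 to 414) that includes no difference. With TNF in wild type, miR-200a was 3.19-fold higher in the RPKM table (2.23 to 4.62) and miR-429 was 2.98-fold higher (2.36 to 3.78), whereas miR-429 was 3.21-fold lower in CPM (1.09 to 10.6). The chromosome 6 miRNA miR-200c was lower in both tables, 6.30-fold in the CPM table (2.25 to 21.7) and 1.17-fold in the RPKM table (0.960 to 1.42, which includes no difference). miR-205 was the only other member lower in both, at 1 read with TNF in the CPM table. Among the 183 miRNAs, 16.9% were lower in both tables.

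Directions were also read against the table medians, since most miRNAs were displaced the same way. The median log2 difference over the 183 with TNF in wild type was -0.61 among CPM libraries and 0.39 among RPKM libraries. Relative to it, miR-200b had -0.55 and 1.38, miR-200a -1.97 and 1.24, and miR-429 -0.99 and 1.17, so the tables still disagreed. miR-141 and miR-203 were also below the median of the CPM table and above that of the RPKM table, which made 5 of 7, against 25.1% of the 183.

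In RBP-J knockout cells the summed chromosome 4 cluster had the same opposition, with a fall in CPM that was clear of counting error only for miR-200b among its members. By value, 4 of 7 members (miR-200b, miR-200a, miR-429 and miR-203) were lower in CPM and higher in RPKM with TNF in both genotypes. The share was 36.6% of the 183, and the CPM order of miR-203 cannot be read. Within the CPM table, on the log2(value + 1) scale, 4 of 7 members were lower with TNF by at least 2-fold (miR-200b, miR-200a, miR-200c and miR-205), against 27.3% of the 183, although only miR-200b among these had more than 4 reads in either library. In RPKM, 3 of 7 were higher by at least 2-fold (miR-200b, miR-200a and miR-429), against 18.6%. miR-200b was 2.5-fold lower in CPM (1.67 to 3.74) and 3.08-fold higher in RPKM (2.51 to 3.79). miR-200a was 6.86-fold higher in the RPKM table (3.23 to 16.8), and miR-429 was 2.17-fold higher (1.49 to 3.21). In CPM miR-429 was 1.35-fold lower (0.527 to 3.25, from 9 reads to 16) and lay on the table median. miR-200a went from 3 CPM reads to 0, and both CPM intervals include no difference.

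The other members gave little in the knockout. miR-200c was 1.24-fold lower with TNF in the RPKM table (1.02 to 1.52), and in the CPM table it went from 4 reads to 2. miR-141 was higher in both tables, 4.16-fold in the CPM table from 1 read to 10 (0.592 to 181) and 1.26-fold in the RPKM table (0.837 to 1.91), and both intervals include no difference. In the wild type, by contrast, the CPM ratio of miR-141 was 6.41-fold lower with TNF (1.70 to 35.8, from 11 reads to 3). Relative to the table medians in the knockout (-0.41 in CPM and 0.30 in RPKM), miR-200b had -0.89 and 1.32.

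**Figure D2:**
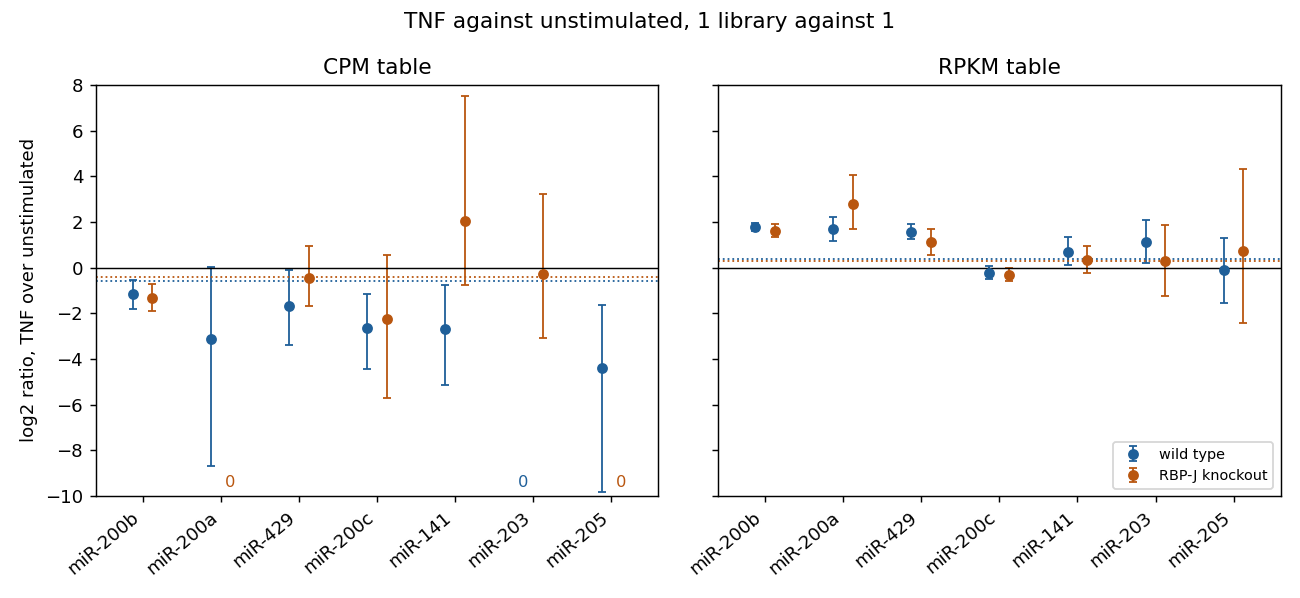
Log2 ratio of the TNF library to the unstimulated library of the same genotype for each miRNA, within the CPM table (left) and the RPKM table (right), with exact 95% intervals from the reads; dotted lines are the medians over the 183 miRNAs tested on the log2(value + 1) scale, and a 0 at the foot marks a library with no read. The chromosome 4 miRNAs miR-200b, miR-200a and miR-429 lie above 0 in the RPKM table in both genotypes (miR-200b 1.78 and 1.62) and below 0 in the CPM table (miR-200b -1.17 and -1.32). In CPM, miR-200a of the knockout has no read with TNF and no point. The intervals of miR-200a in the wild type and of miR-429 in the knockout cross 0.

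No member passed the test for TNF. Limma was fitted across the 183 miRNAs with a block for the deposited table. Each contrast is then taken within tables, and its error (± SE, 2 libraries per group) comes from how far they disagree. In wild type 0 of 7 members passed at an adjusted p of 0.05, as did 0.0% of the 183, and the lowest adjusted p among the members was 0.64. At an unadjusted p under 0.05 there were 0 members, against 6.56%. In the knockout it was also 0 of 7, against 0.0%, with a lowest adjusted p of 0.943, and 0 members had an unadjusted p under 0.05, against 8.74%. Averaged over genotypes 0 of 7 passed, against 0.0%, and 0 members had an unadjusted p under 0.05, against 14.2%.

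The fitted log2 fold changes for TNF averaged over genotypes were small for the chromosome 4 cluster beside their errors. They were 0.23 ± 0.68 for miR-200b, -0.40 ± 0.98 for miR-200a and 0.16 ± 0.70 for miR-429. On chromosome 6 they were -1.24 ± 0.74 for miR-200c (adjusted p = 0.488 in limma) and 0.07 ± 0.73 for miR-141. miR-203 had -0.74 ± 0.83 and miR-205 had -1.33 ± 0.76 (adjusted p = 0.461 in limma). Over all 183 the median was -0.12. With the RPKM library of unstimulated wild type left out, miR-200c passed as lower with TNF (-2.02, adjusted p = 0.0435 in limma), as 1 of 23 of the 183 miRNAs that passed in that fit, with the CPM library that stood apart as the remaining wild-type baseline. Without that CPM library instead, miR-200c had -0.45 (adjusted p = 0.969 in limma), miR-205 had -0.52 and miR-200b had 0.57.

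The balance between the clusters was compared within each library, where library scaling cancels. This ratio was chosen after the values were seen. In the RPKM table the summed chromosome 4 miRNAs stood at 1.73 times the summed chromosome 6 miRNAs in unstimulated wild type and at 5.99 times with TNF, a 3.46-fold difference (exact 95% interval from the reads 2.8 to 4.21). In the knockout the ratio was 0.582 without and 2.01 with TNF, also a 3.46-fold difference (2.69 to 4.43).

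The CPM table gave the same direction in wild type, with ratios of 2.28 and 5.75, a 2.53-fold difference (1.01 to 6.95). In its knockout libraries the ratio was 13.0 without and 5.58 with TNF, from only 5 and 12 chromosome 6 reads, and the interval of the difference (0.113 to 1.41) included none. The cluster ratio was thus higher with TNF in 3 of 4 comparisons, with a mean log2 change of 0.92 ± 1.45 (SD, n = 4 library pairs). For miR-200b over miR-200c alone it was higher in 4 of 4, by 4.0-fold (3.17 to 5.04) and 3.83-fold (2.88 to 5.11) in the RPKM table. The CPM folds were 2.81 (0.892 to 10.5) and 1.92 (0.261 to 22.0), from 5 and 2 miR-200c reads with TNF, and both intervals include no difference. The 4 gave a mean log2 change of 1.59 ± 0.49 (SD, n = 4 library pairs).

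**Figure D3:**
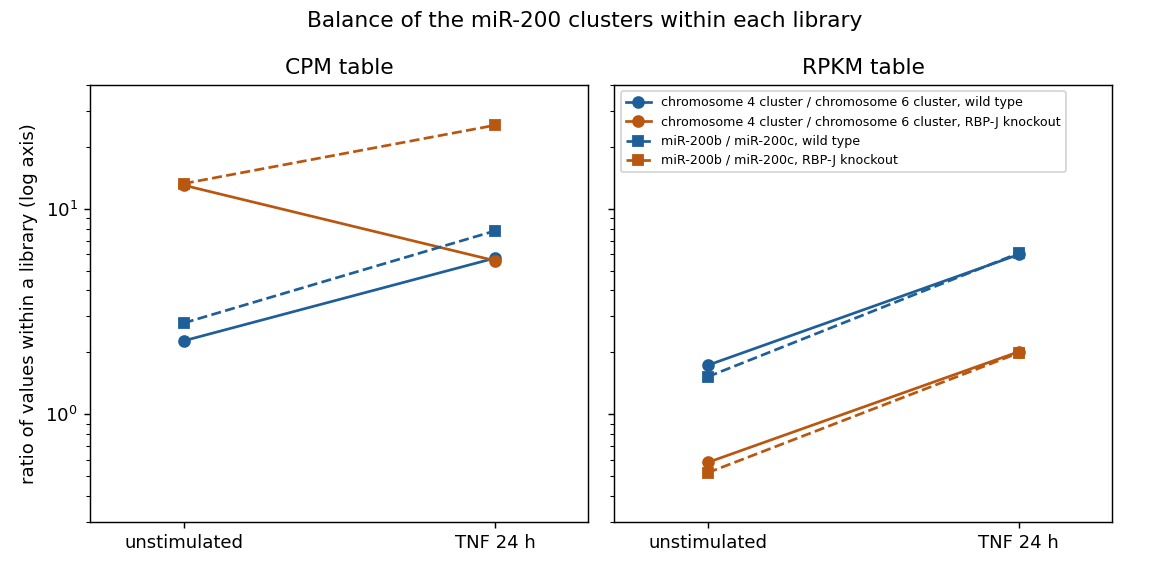
Ratio of the chromosome 4 cluster (miR-200b, miR-200a and miR-429 summed) to the chromosome 6 cluster (miR-200c and miR-141 summed), and of miR-200b to miR-200c, within each library of the CPM table (left) and the RPKM table (right), on a log axis; lines join unstimulated and TNF-treated libraries of a genotype. All lines climb with TNF except the cluster ratio of the knockout in the CPM table, which goes from 13.0 to 5.58.

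For the loss of RBP-J, the clusters stood on opposite sides in the RPKM table. Without stimulation, miR-200b was 1.95-fold lower in the knockout (1.59 to 2.40), miR-200a 3.69-fold lower (1.71 to 9.08) and miR-429 1.61-fold lower (1.12 to 2.36). miR-200c was 1.5-fold higher (1.25 to 1.8) and miR-141 1.71-fold higher (1.10 to 2.68). With TNF, miR-200b was 2.17-fold lower in the knockout (1.93 to 2.45) and miR-429 2.21-fold lower (1.73 to 2.86), while miR-200c was 1.41-fold higher (1.14 to 1.74). For miR-141 with TNF the interval included no difference (1.33-fold higher, 0.898 to 1.96), as it did for miR-205 under both treatments (3.77-fold lower, 0.823 to 35.0, and 2.11-fold lower, 0.526 to 12.1). The cluster ratio was 2.97-fold lower in the knockout without stimulation and 2.97-fold lower with TNF. This match follows from the equal TNF folds of the genotypes, since both use the same library ratios, and is not a separate result.

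The CPM table did not show this split. miR-200b was close in the genotypes there, 1.04-fold lower in the knockout without stimulation (0.690 to 1.56) and 1.15-fold lower with TNF (0.741 to 1.79), and both intervals include no difference. miR-200c was 4.94-fold lower in the unstimulated knockout (1.63 to 20.1) and miR-141 was 12.1-fold lower from 11 reads to 1 (1.76 to 520), both against the CPM library that stood apart. The CPM cluster ratio was 5.71-fold higher in the unstimulated knockout (2.00 to 19.9), the reverse of the RPKM table. With TNF it was 0.971 times that of wild type (0.318 to 2.82), an interval that includes no difference.

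Counted by direction, 5 of 7 members were lower in the unstimulated knockout in both tables (the 3 chromosome 4 miRNAs, miR-203 and miR-205), against 39.3% of the 183. In CPM, however, the intervals of the 3 chromosome 4 miRNAs and miR-203 include no difference. miR-200a went from 5 reads to 3 there and miR-203 from 5 to 2, and the wild-type library was the one that stood apart. With TNF 3 of 7 were lower in both tables, against 38.3%. The values of miR-200b, miR-200a and miR-205 were lower in the knockout in both tables under both treatments, 3 of 7 against 18.6% of the 183. With median-of-ratios scaling those of miR-200a and miR-205 still were but not those of miR-200b, 2 of 7 against 14.2%. For both miR-200a and miR-205, however, the CPM comparison with TNF was 1 read against 0, where 0 reads allow up to 3.54 CPM, so its direction cannot be read. The levels of miR-205 in these comparisons were 12 and 1 reads and 1 and 0 reads in the CPM table, and 11 and 2 reads and 9 and 3 reads in the RPKM table, for wild type and knockout. Because miR-205 exceeded 5 CPM only in the unstimulated wild-type library, a lower value in the unstimulated knockout was favoured by its being listed. Its part in these counts is not read as a result.

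**Figure D4:**
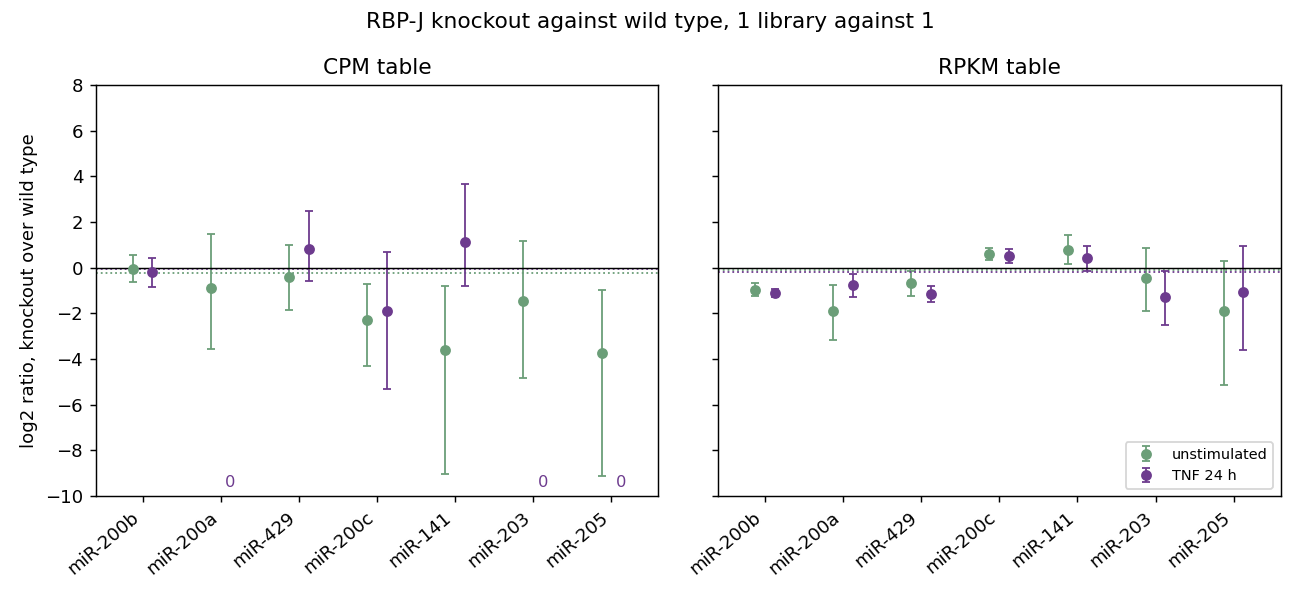
Log2 ratio of the knockout library to the wild-type library under the same treatment for each miRNA, within the CPM table (left) and the RPKM table (right), with exact 95% intervals from the reads; dotted lines are medians over the 183 miRNAs tested, and a 0 at the foot marks a comparison with a library that has no read. In the RPKM table the chromosome 4 miRNAs lie below 0 under both treatments (miR-200b -0.97 and -1.12) and the chromosome 6 miRNAs above it (miR-200c 0.59 and 0.49).

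In limma no member passed for the knockout either. There were 0 of 7 without stimulation, against 0.0% of the 183, and 0 of 7 with TNF, against 0.0%. At an unadjusted p under 0.05 there were 1 of 7 without stimulation (miR-205), against 2.73%, and 0 of 7 with TNF, against 2.19%. Averaged over treatments it was 0 of 7, against 0.546%, which is miR-151 alone, and 1 of 7 (miR-205) at an unadjusted p under 0.05, against 7.65%. miR-205 had -1.8 ± 0.76 (adjusted p = 0.558 in limma). Since it exceeded 5 CPM only in the unstimulated wild-type library, a lower value in the knockout was favoured by its being listed at all, and its unadjusted p is not read as a result. The others had -1.19 ± 0.98 (miR-200a), -0.58 ± 0.68 (miR-200b), -0.36 ± 0.70 (miR-429), -0.67 ± 0.74 (miR-200c), -0.26 ± 0.73 (miR-141) and -0.10 ± 0.83 (miR-203), beside a median of -0.12 over all 183. Without the CPM library that stood apart, miR-205 had -0.98 (adjusted p = 0.992 in limma). The difference in TNF response between genotypes was tested as an interaction, in which 0 of 7 members passed, against 0.0%, with a lowest adjusted p of 0.988 and 0 members at an unadjusted p under 0.05, against 0.0%.

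In the RPKM table the stromal and lymphoid sums moved in the same direction as the chromosome 4 cluster, and the macrophage and myeloid sum did so by less. The endothelial and erythroid markers did not. The lymphoid sum was 10469, 17756, 7939 and 11714 RPKM in the order of groups used above. Its 2 markers were split, with 1 higher and 1 lower, for TNF in the knockout and for the unstimulated knockout. The endothelial miR-126a (275, 236, 398 and 184 RPKM) and the erythroid sum (5.23, 5.16, 11.3 and 6.23 RPKM) were highest in the unstimulated knockout. The stromal list, led by miR-143 of fibroblasts and smooth muscle, had 5 of 6 markers listed there and summed to 20507 RPKM in unstimulated wild type, 55223 with TNF, 6350 in the unstimulated knockout and 12514 in the knockout with TNF. That sum was 2.69-fold higher with TNF in wild type and 1.97-fold higher in the knockout, and 3.23-fold and 4.41-fold lower in the knockout without and with TNF. Of the 5 markers, 4 were higher with TNF in wild type, 3 in the knockout, and all 5 were lower in the knockout under both treatments. Most of the stromal sum was miR-143 (16593, 51576, 3380 and 11410 RPKM). The stromal marker miR-10b was lower with TNF in wild type (3357 to 2015 RPKM) and in the knockout (2767 to 753 RPKM). Of the 6 stromal markers, 4 were listed in CPM, summing to 187, 101, 167 and 136 CPM. No stromal marker listed in either table was at 0, and their part in the result was not tested. Listed miRNAs took 50.0%, 65.7%, 44.6% and 53.2% of the reads of the RPKM libraries, in the same order of groups. That share had the same highest and lowest libraries as the chromosome 4 cluster, and its part was not tested either. The macrophage and myeloid sum, most of it miR-22 and miR-21a, differed by 1.01-fold to 1.45-fold between the compared RPKM libraries. Each difference had the direction of the chromosome 4 cluster. Its 6 markers were split, with 3 higher and 3 lower, for TNF in the knockout and for the unstimulated knockout.

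**Figure D5:**
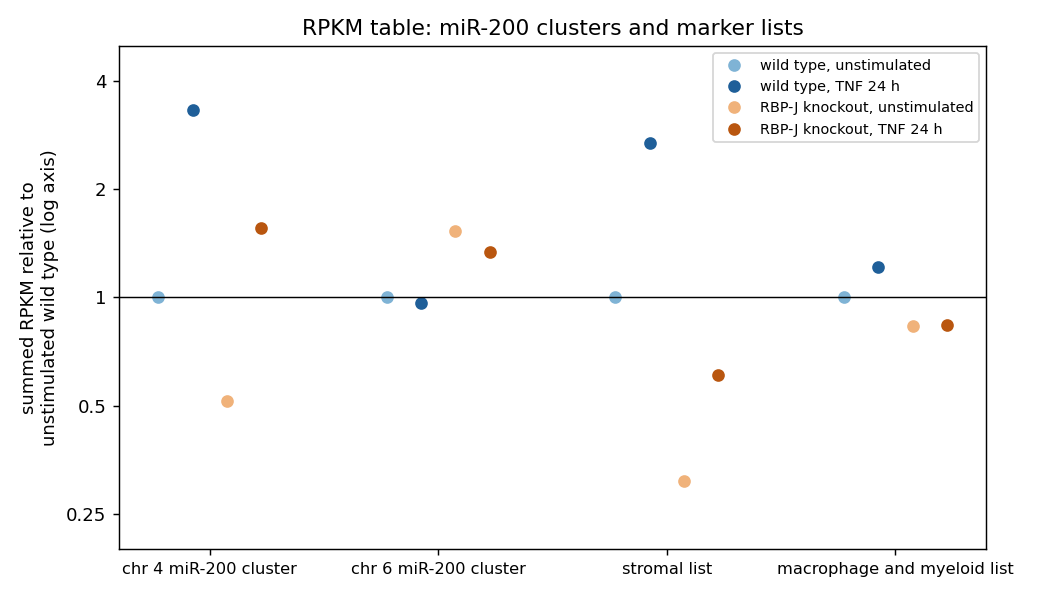
Summed RPKM of the chromosome 4 and chromosome 6 miR-200 clusters, the stromal list and the macrophage and myeloid list in the 4 libraries of the RPKM table, each relative to unstimulated wild type (log axis, 1 library per point). The chromosome 4 cluster and the stromal list are both highest in wild type with TNF (1070 and 55223 RPKM) and lowest in the unstimulated knockout (165 and 6350 RPKM), while the chromosome 6 cluster lies between 179 and 284 RPKM. The macrophage and myeloid list has the same highest and lowest libraries (3594360 and 2459270 RPKM), over a narrower range.

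Other miRNAs enriched in epithelia were set beside the 7, and the difference between the lists was not tested. Of 14 such miRNAs, 10 were tested, and 0 passed in limma for any of the 7 comparisons, in either direction. For TNF averaged over genotypes their median log2 fold change was 1.63, beside -0.40 for the 7 members and -0.12 for all 183, and 6 of the 10 had an unadjusted p under 0.05, against 14.2% of the 183. They included miR-449c (3.39 ± 0.77, adjusted p = 0.082 in limma), a miRNA of multiciliated cells, and miR-31 (3.27 ± 0.90, adjusted p = 0.163 in limma). However, miR-449c, miR-31, miR-34c and miR-34b exceeded 5 CPM only with TNF (miR-31 had 0, 39.1, 0 and 37.7 CPM in the order of groups above). A rise with TNF was thus favoured by their being listed, and the median and the 6 of 10 are not read as a result. The columnar epithelial miR-192 had 0.40 ± 0.35, at 391 to 601 CPM and 4411 to 8040 RPKM, above every member in each RPKM library. miR-194 had -0.12 ± 0.60 and miR-215 had -0.12 ± 0.59.

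The rest of that list gave the following values. The multiciliated miR-34c had 2.69 ± 0.76 and miR-34b 1.2 ± 0.62 for TNF averaged, and miR-449a had 1.89 ± 0.74, while miR-182 and miR-183 had 1.55 ± 0.47 and 1.72 ± 0.57. miR-375 of secretory epithelium was listed in both tables, at 0 to 9.34 CPM and 2.69 to 9.21 RPKM, below the level required for the test. miR-224 had 9.01 to 41.0 RPKM and miR-96 had 0.434 to 1.39 RPKM, each in the RPKM table alone. For the knockout averaged over treatments the median of the 10 was -0.03, beside -0.58 for the 7.

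The miRNAs whose profile was most like each member were named by Pearson correlation of log2(value + 1), centred within each table, over the 8 libraries. These are descriptions over few libraries that share table, depth and scaling. miR-200b was most like miR-27a (0.984), miR-671 (0.967) and miR-484 (0.946), and its r with its neighbours was 0.931 for miR-429 and 0.912 for miR-200a. miR-429 was most like miR-23b (0.976), miR-143 (0.957) and miR-484 (0.937), and miR-200a most like miR-140 (0.973), miR-1955 (0.933) and miR-671 (0.919). Several miRNAs outside the cluster were thus as close to its members as the members were to each other.

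Neighbours on chromosome 6 were less alike. miR-200c and miR-141 had an r of 0.497, and miR-200c with miR-200b 0.275. miR-200c was most like miR-122 (0.957), miR-503 (0.947) and miR-20a (0.923), and miR-205, which had 0.864 with miR-200c, was most like miR-188 (0.953), miR-503 (0.949) and miR-122 (0.944). miR-141 was most like miR-1934 (0.954), miR-652 (0.873) and miR-139 (0.857). miR-203 was most like miR-1249 (0.974), miR-16 (0.929) and miR-467d (0.891).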

How the data were processed

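The 2 small RNA tables with 1 column per group each cover 8 libraries prepared with the Illumina TruSeq small RNA kit, per the labels' protocols. The submitters' processing notes name CASAVA 1.8.2, while aligner, counter and build are not given in the sources used here. The authors deposited CPM in the first table (452 rows) and, in the second (371 hairpins), values without a unit name, read as RPKM because value times GENCODE M21 gene length (363 identifiers matched) gave whole reads, within 0.1, for 94.8% to 95.3% of low values. Of low CPM values, 100.0% were whole reads. Its libraries total miRNA reads only, whereas listed miRNAs took 44.6% to 65.7% of reads in the RPKM table, so a change in that share moves all its miRNAs together.

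Arms and hairpin copies were summed per miRNA number, and 196 numbers stood in both tables. Of these, 183 with a mean of at least 5 over the 8 libraries were tested, the 7 members included. RPKM mostly weighs more in that mean, but for miR-205 the CPM mean was the higher (10.5 CPM against 4.88 RPKM). Values were tested as log2(value + 1), which understates changes of low miRNAs, in limma 3.58.1 (R 4.3.3, eBayes with a trend, two-sided, Benjamini-Hochberg over the 183), with table as a block. The column names carry no replicate number; table numbers stand for those of the titles, which tie to no animal or culture. Deviations from group means correlated at 0.746 to 0.915 between CPM libraries. edgeR 4.0.16 and DESeq2 1.42.0 on the recovered reads were alternatives, and the limma code was tested on simulated data.

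Intervals are exact (Clopper-Pearson), at 95%, and cover counting error only, since reads without molecular identifiers are not independent molecules; limits for 0 reads use 3 reads. Members and lists were chosen with earlier results of these data known. The text names all members, the listed epithelial and marker miRNAs, and the 3 miRNAs most like each member.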

Additional observations from a re-analysis of the deposited data

How the results depend on the processing

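The table was the replicate block. Without a replicate block, no miRNA passed for the knockout averaged over treatments (0 in place of 1), and every other comparison stayed at 0. On recovered reads edgeR called 1 and DESeq2 4 for TNF in the knockout, 4 and 7 for TNF averaged, and DESeq2 called 2 for the knockout averaged, none of them an epithelial member. Leaving out 1 library, with the lone library of its group assumed to vary like the other groups, gave 0 to 8 calls for TNF in wild type, 0 to 7 in the knockout, 0 to 5 for the unstimulated knockout, 0 to 2 for the interaction, 0 to 23 for TNF averaged and 0 to 4 for the knockout averaged. The highest counts came without the RPKM library of unstimulated wild type (8, 5, 2 and 23 for TNF in wild type, the unstimulated knockout, the interaction and TNF averaged) or of wild type with TNF (7 for TNF in the knockout), and for the knockout averaged without the former or without the CPM library of wild type with TNF (4 each). For the knockout with TNF all such counts were 0. The 1 call of a member among 861 member tests under the alternatives was miR-200c, given above.

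For TNF averaged, the log2 fold change of miR-200a turned to 0.13 with a pseudocount of 5 and to 0.62 in edgeR, that of miR-429 to -0.0061 and of miR-141 to -0.097 after rescaling to the listed miRNAs, and that of miR-141 to -0.011 in edgeR and -0.16 in DESeq2. For the knockout averaged, miR-141 turned to 0.0085 in edgeR and 0.075 in DESeq2, and miR-203 to 0.085 with a pseudocount of 0.5, 0.083 after median-of-ratios scaling and 0.016 with rescaled totals. The cause was not tested. With each library left out in turn, the log2 fold change with TNF ranged from -0.41 to 0.87 for miR-200b, -1.39 to 0.59 for miR-200a, -0.55 to 0.87 for miR-429, -2.02 to -0.45 for miR-200c, -0.74 to 0.87 for miR-141, -1.82 to 0.34 for miR-203 and -2.14 to -0.52 for miR-205. Those for the knockout ranged from -1.22 to 0.057 for miR-200b, -2.18 to -0.20 for miR-200a, -1.07 to 0.34 for miR-429, -1.46 to 0.11 for miR-200c, -1.06 to 0.55 for miR-141, -1.18 to 0.98 for miR-203 and -2.61 to -0.98 for miR-205. miR-205 stayed negative in all fits run for both. Since it exceeded 5 CPM only in the unstimulated wild-type library, that sign was favoured by its being listed and is not read as a result. With a mean of at least 20, miR-203 and miR-205 were not tested, and with a mean of at least 5 in each table miR-205 was not. The mean log2 change of the cluster ratio with TNF was 0.64 to 1.64 with each library pair left out; this alternative was added after the data were seen. Each arm on its own gave the values above, since each member has 1 arm listed. Depth limits miR-203 and miR-205 in both tables and all members but miR-200b in the CPM table.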
